A study of Mus musculus with 24 samples.

Results

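The genes described here encode heat shock proteins and chaperones, the proteins that help other proteins to fold, refold or be degraded. They were followed across 6 organs of mice without Nur77, an orphan nuclear receptor encoded by Nr4a1. Members were taken by gene symbol from the array's platform annotation: the HSP90, HSP70, HSP110, HSP60 with HSP10 and small heat shock protein genes, the J proteins of classes A, B and C, the BAG cochaperones and the subunits of the CCT chaperonin. This gave 68 genes on 108 probes, of 16148 genes and unnamed probes in the whole table. By subfamily there were 2 HSP90, 7 HSP70, 1 HSP110, 2 HSP60 and HSP10, 7 small heat shock protein, 3 class A, 9 class B and 23 class C J protein, 6 BAG and 8 CCT genes. Hsp90ab1, Hspa8 and Hspa1b were not among the symbols and were not analysed here.

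On 2-colour arrays, each of 6 organs of Nur77-/- mice (brown adipose tissue, skeletal muscle, testis, spleen, heart and lung) was set against the same organ of wild-type (Nur77+/+) mice. Per the design text, 7 mutant and 7 wild-type mice were pooled, whereas the labelling protocol speaks of 6 control animals. Each organ had 4 arrays, of which replicates 1 and 2 carried the mutant pool in Cy5 and replicates 3 and 4 carried it in Cy3. The 4 arrays repeat 1 comparison between pools, so their p-values measure hybridisation error and not the spread between animals. Strain, age, sex, treatment and the construction of the allele have no entry in the sources used here.

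Chaperones of the HSP70 family bind exposed hydrophobic stretches of unfolded proteins in a cycle driven by ATP. J proteins deliver clients to them and trigger ATP hydrolysis, while HSP110 proteins and BAG cochaperones act as nucleotide exchange factors that reset the cycle. HSP90 acts late in folding, on kinases and on nuclear receptors among others, and small heat shock proteins hold aggregating proteins without ATP. HSP60 with HSP10 in mitochondria and CCT in the cytosol are barrel-shaped chaperonins that enclose their clients. Many of these genes are induced by the transcription factor HSF1 upon stress and carry heat shock elements, repeats of nGAAn in alternating orientation. Testis is known for its own chaperone genes, among them Hspa1l.

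All values are the authors' deposited log2 ratios, read here as mutant over wild type on every array; that direction is likely but not stated. A value below 0 is then a lower level in the mutant pool. Values over 12 in size form a separate mode and were treated as missing, which removed 23 values of the members. Members had values on 14 to 24 arrays (median 22), and 40 of the 68 could be tested in every organ. Arrays held 13396 to 19455 values with medians between -0.78 and 0.67. Nr4a1, the targeted gene, lay below 0 on 21 of the 22 arrays that measured it. Its ratio was -1.73 ± 0.307 (SE of the limma model, n = 3 arrays) in skeletal muscle (adjusted p 0.0022), -1.14 ± 0.264 in brown adipose tissue and -0.24 ± 0.307 in testis. The wild-type channel of heart replicate 2 is labelled as skeletal muscle. In heart, the 12 tested fast skeletal muscle markers had organ ratios of -0.303 to 0.568 (median 0.029), and the label itself was not tested. A ratio holds no level, so an organ label shared by both channels could not be checked against organ markers. Fewer cells of a type cannot be told apart from less RNA per cell.

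Members lay lower in the mutant than the table as a whole in lung and spleen, and close to it in the other organs. In lung, 40 of 55 tested members had a ratio below 0, against 51.2% of all rows, with a median of -0.24 against -0.01. In spleen 34 of 52 did, against 54.5%, with a median of -0.32 against -0.07. With arrays centred and scaled, the spleen median was -0.15 (31 of 52 below 0), against -0.01 for all rows. It was -0.16 against 0.005 without replicate 2, and -0.20 against 0.015 without replicate 3. The counts were 35 of 62 in heart (52.2% of rows), 36 of 64 in testis (47.3%), 37 of 60 in skeletal muscle (58.2%) and 43 of 66 in brown adipose tissue (61.1%). With the arrays centred on their medians, the members' median moved from -0.14 to 0.02 in skeletal muscle, where the median of all rows moved from -0.16 to -0.01, so no direction is given for the members as a set in that organ.

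**Figure D1:**
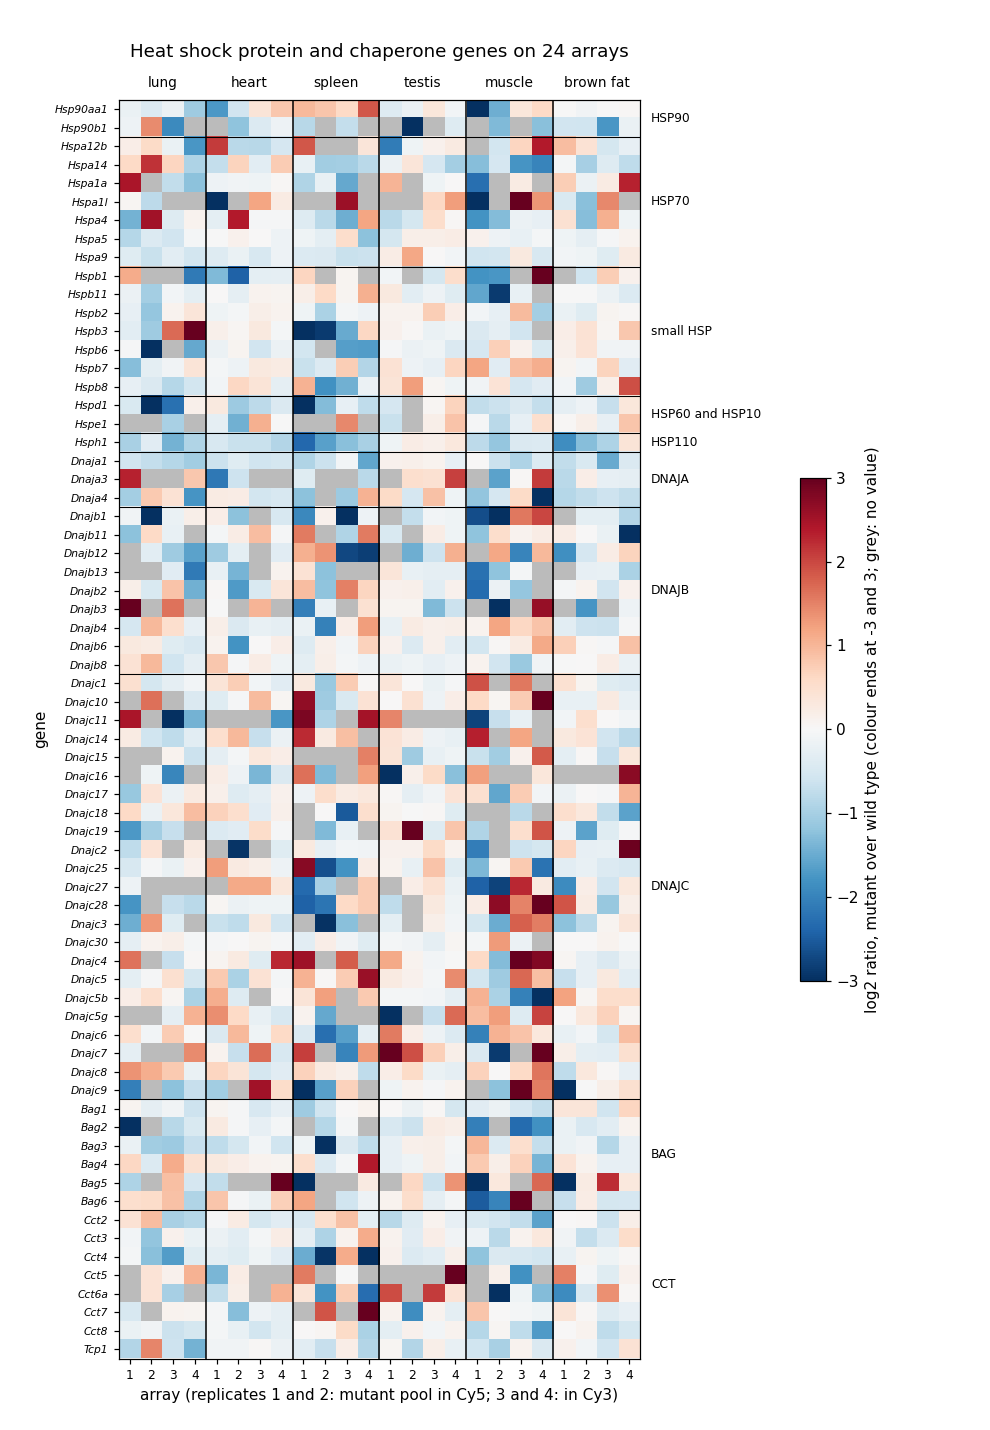
Log2 ratios, mutant over wild type, of the 68 chaperone genes (rows, by subfamily) on the 24 arrays (columns, by organ and replicate). Blue is below 0, red above 0 and grey without a value. The row of Hsph1 is blue on 19 of the 20 arrays outside testis.

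Few single members passed the test after Benjamini-Hochberg adjustment over all rows. In spleen 1 of 52 did, Hsph1, where 1.53% of all rows passed and 0.936% passed as lower. In skeletal muscle 4 of 60 did, against 5.59% of rows. Bag2, Hspa14 and Hspb11 fell there, as did 2.23% of rows, and Dnajc28 rose, as did 3.36%. None of 55 passed in lung (0.0809% of rows), none of 62 in heart (0%), none of 64 in testis (0%) and none of 66 in brown adipose tissue (0%). At an unadjusted p under 0.05, 5 of 55 members were lower in lung against 3.68% of rows, 3 of 62 in heart against 1.13%, and 10 of 52 in spleen against 8.67%. In testis 0 of 64 were lower against 1.11%, in skeletal muscle 13 of 60 against 11.4%, and in brown adipose tissue 2 of 66 against 0.440%. Hsph1 was among these in every organ other than testis, and Dnaja1 in every organ other than testis and skeletal muscle. The test above gives all arrays equal weight, but they differed in precision. Estimated array weights were 0.243 to 0.527 in spleen and 0.131 to 0.743 in skeletal muscle. They were 0.569 to 1.353 in lung, 0.518 to 3.833 in testis, 1.781 to 4.307 in heart and 0.932 to 4.103 in brown adipose tissue. With arrays weighted by their precision, 2 members passed in brown adipose tissue, against 0.0526% of rows, and 0 in each other organ. The shares of rows were then 0.235% in lung, 0.296% in heart, 0.205% in spleen, 0.0664% in testis and 1.31% in skeletal muscle.

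Hsph1 encodes HSP110, the exchange factor of cytosolic HSP70 and a classical target of HSF1. Its promoter is shown with those of Dnaja1, Hspd1 and Dnajb1, since these 4 had the smallest p-values in the mean over organs described below. Sequences are the 250 bases before an annotated transcription start in RefSeq (build GRCm38.p6), 5′ to 3′ on the gene's strand. Capitals mark pairs of inverted heat shock units, GAANNTTC or TTCNNGAA, which each read the same on both strands. Hsph1 is at chr5:149636337-149636586 (minus strand), Dnaja1 at chr4:40722218-40722467 (plus), Hspd1 at chr1:55087933-55088182 (minus) and Dnajb1 at chr8:83607925-83608174 (plus).
Hsph1: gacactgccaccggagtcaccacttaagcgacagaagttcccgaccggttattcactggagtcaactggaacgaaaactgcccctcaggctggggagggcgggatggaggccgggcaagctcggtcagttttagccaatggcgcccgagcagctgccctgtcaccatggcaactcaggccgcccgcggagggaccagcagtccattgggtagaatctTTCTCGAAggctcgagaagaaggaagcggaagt
Dnaja1: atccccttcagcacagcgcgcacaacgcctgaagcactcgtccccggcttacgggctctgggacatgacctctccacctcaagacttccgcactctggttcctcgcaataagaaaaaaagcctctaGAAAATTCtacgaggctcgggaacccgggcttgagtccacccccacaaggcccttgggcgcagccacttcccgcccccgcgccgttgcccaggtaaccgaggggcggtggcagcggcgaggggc
Hspd1: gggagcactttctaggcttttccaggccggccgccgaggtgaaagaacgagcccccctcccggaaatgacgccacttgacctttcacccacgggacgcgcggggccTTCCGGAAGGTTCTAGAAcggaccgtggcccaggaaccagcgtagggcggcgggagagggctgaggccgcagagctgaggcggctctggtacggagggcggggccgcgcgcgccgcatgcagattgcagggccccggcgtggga
Dnajb1: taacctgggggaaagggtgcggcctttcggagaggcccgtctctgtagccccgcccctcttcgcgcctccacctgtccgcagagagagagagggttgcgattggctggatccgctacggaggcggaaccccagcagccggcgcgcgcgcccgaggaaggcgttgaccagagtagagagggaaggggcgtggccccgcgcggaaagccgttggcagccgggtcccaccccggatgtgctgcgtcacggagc
Hsph1 had 1 match, which begins 33 bases before the start, and Dnaja1 had 1 at 124 bases. Hspd1 had 3 overlapping matches that begin between 144 and 134 bases before the start. No match lay in the window of Dnajb1. These genes have several annotated starts, and a window with a match was shown where there was one: 2 of 2 windows had a match for Hsph1, 1 of 3 for Dnaja1, 1 of 2 for Hspd1 and 0 of 2 for Dnajb1.

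Of the 68 members, 57 were matched to RefSeq promoters, and 15 of them (26.3%) held such a pair in at least 1 window, against 14.5% of 27025 genes. Over windows of this length the shares were 23.0% of 74 for members and 12.8% of 32851 for all genes. A run of 3 alternating units, GAANNTTCNNGAA or TTCNNGAANNTTC, which contains overlapping pairs, lay upstream of Dnajb6, Hspd1 and Hspe1, 5.26% of the matched members against 0.514% of genes. Among members tested in all organs, the 9 with a pair had a median mean ratio of -0.44 (7 below 0). The 23 without one had a median of -0.16 (19 below 0). Members with a pair thus lay on both sides of 0: Hspd1 was at -0.78 ± 0.251 (SE over organs), whereas Dnajb6 with its 3 units was at 0.03 ± 0.134 and Dnajb4 at 0.03 ± 0.159.

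In spleen, Hsph1 read -2.35, -1.64, -1.26 and -0.97 on replicates 1 to 4. All 4 arrays were below 0 in both dye orientations, and its ratio fell by 1.56 ± 0.289 on the log2 scale, a 2.94-fold lower level (limma, unadjusted p 2.77e-05, adjusted p 0.00759). The call ended with array weights (-1.66, adjusted p 0.272) and with arrays centred and scaled (-1.06, adjusted p 0.636). With spleen fitted alone its adjusted p was 0.87, but no row of the table passed in that setting. Leaving out each spleen array in turn kept the call, at -1.34 to -1.70. Exocrine pancreas markers fell in the same spleen comparison, 10 of 12 tested with a median of -4.07 and a range of -6.68 to 1.89, and their part in the spleen results was not tested.

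Outside spleen, Hsph1 was lower in 4 more organs without passing the adjusted test. In lung it read -0.98, -0.33, -1.42 and -0.91 (ratio -0.91 ± 0.289, adjusted p 0.387). In heart the arrays lay close together at -0.48, -0.67, -0.67 and -0.87 (-0.67 ± 0.289, adjusted p 1). These 8 values are all below 0, in both dye orientations. In skeletal muscle the values were -0.78, -1.15, -0.43 and -0.42 (-0.70 ± 0.289, adjusted p 0.178). In brown adipose tissue they were -1.87, -1.27, -0.93 and 0.39 (-0.92 ± 0.289, adjusted p 1), so that replicate 4 alone was above 0. With array weights, which give that array less influence, the ratio was -1.18 with an adjusted p of 0.0145. The weighted ratios of Hsph1 were -0.748 in heart (adjusted p 0.068), -0.992 in lung (adjusted p 0.2) and -0.68 in skeletal muscle (adjusted p 0.645). Fast skeletal muscle markers were lower in lung, 3 of 12 past the test with a median of -1.49 and a range of -3.46 to 2.19, and their part in the lung results was not tested.

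Testis stood apart for this gene. Hsph1 read -0.12, 0.22, 0.16 and 0.32 there, with a ratio of 0.14 ± 0.289. Testis minus the mean of the other organs was 1.09 ± 0.290 (unadjusted p 0.0012), but the adjusted p was 0.602, and 0.0524 with array weights. In that contrast 3 of 40 members were higher in testis at an unadjusted p under 0.05 (Hsph1, Dnaja1 and Hspa9), against 3.32% of rows, and none passed after adjustment, against 0.0132%. The contrast was chosen after its values had been seen.

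Dnaja1, a farnesylated class A J protein that works with cytosolic HSP70, had all arrays below 0 in 4 organs. Lung read -0.57, -0.72, -0.86 and -1.04, and heart -0.64, -0.37, -0.60 and -0.54. Brown adipose tissue read -0.73, -0.45, -1.52 and -0.44. All 12 of these values were below 0, with ratios of -0.80 ± 0.246, -0.54 ± 0.246 and -0.78 ± 0.246. Spleen was as low (-0.91, -0.66, -0.07 and -1.55, ratio -0.80 ± 0.246, adjusted p 0.108), with replicate 3 near 0. Without that array the spleen ratio was -1.09 and passed (adjusted p 0.0316). Skeletal muscle had 1 array at 0.01 and the others at -0.63, -0.92 and -0.41. Testis read 0.13, 0.15, 0.10 and -0.25, a ratio of 0.03 ± 0.246. Dnaja1 thus lay below 0 on 19 of 20 arrays outside testis and on 1 of 4 in testis, as Hsph1 did. No organ passed with all arrays at equal weight. With array weights, brown adipose tissue passed (adjusted p 0.0499).

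**Figure D2:**
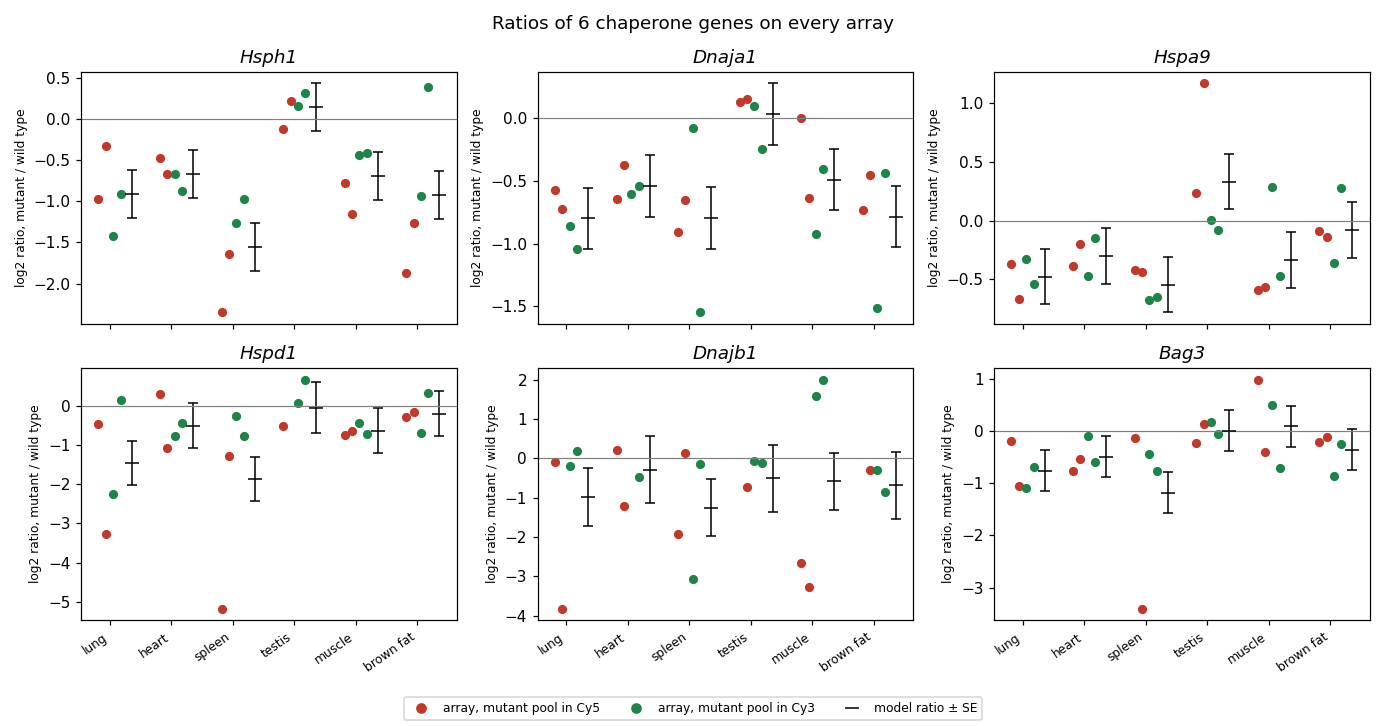
Log2 ratios, mutant over wild type, of Hsph1, Dnaja1, Hspa9, Hspd1, Dnajb1 and Bag3 on every array, by organ; points are arrays coloured by the dye of the mutant pool, and bars the model ratio ± SE. The vertical scales differ between panels. In testis, 3 of 4 arrays of Hsph1 and of Dnaja1 lie above 0.

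The other class A genes were measured less evenly. Dnaja4, another cytosolic protein of the class, was below 0 on all 4 arrays in brown adipose tissue at -0.86, -0.74, -0.61 and -0.75 (ratio -0.74 ± 0.528), while its values in skeletal muscle ran from -3.58 to 0.59. Dnaja3, the mitochondrial class A protein, was tested in 3 organs, with ratios of 0.93 ± 0.617 in testis, 0.10 ± 0.617 in skeletal muscle and -0.29 ± 0.528 in brown adipose tissue.

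The 40 members tested everywhere were also compared over organs, with each organ as 1 value (limma on 6 organ ratios). No row of 7553 passed after adjustment (0% of rows; adjusted p of 0.696 for each member named here). At an unadjusted p under 0.05, 9 of 40 members (22.5%) were lower, against 3.75% of rows, and 0 were higher, against 1.97%. They were Dnajb1 (-0.72 ± 0.151, unadjusted p 0.00118), Dnaja1 (-0.56 ± 0.145, p 0.00426), Hsph1 (-0.77 ± 0.201, p 0.00463), Hspd1 (-0.78 ± 0.251, p 0.0131), Dnajb12, Cct4, Bag3, Dnaja4 and Cct8. Hsph1 and Dnaja1 stayed in the list under every setting tried, in which the list held 4 to 10 genes. It held 4 with the values over 12 kept (Bag3, Cct4, Dnaja1 and Hsph1), 4 without replicate 4 of each organ and 5 without replicate 1 or without lung. Organs may come from the same animals, so they are not independent replicates.

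In total 31 of 40 members had a mean below 0, against 55.0% of rows, with a median of -0.15 against -0.03. After centring the arrays this was 27 of 40, with a median of -0.12 against 0.02. The CCT genes were below 0 in 5 of 5 and the HSP70 genes in 4 of 4, under the deposited scale, centring, centring with scaling and array weights alike. The class C J proteins (5 of 9 below 0, median -0.003) and the small heat shock proteins (5 of 6, median -0.08) had no stable side: after centring and scaling their medians were 0.08 and 0.03. A ratio below 0 in all 6 organs was seen for 5 of 40 members (Cct4, Cct8, Dnajb1, Hspd1 and Tcp1), against 4.34% of rows, and in at least 5 organs for 17 of 40, against 18.9%.

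**Figure D3:**
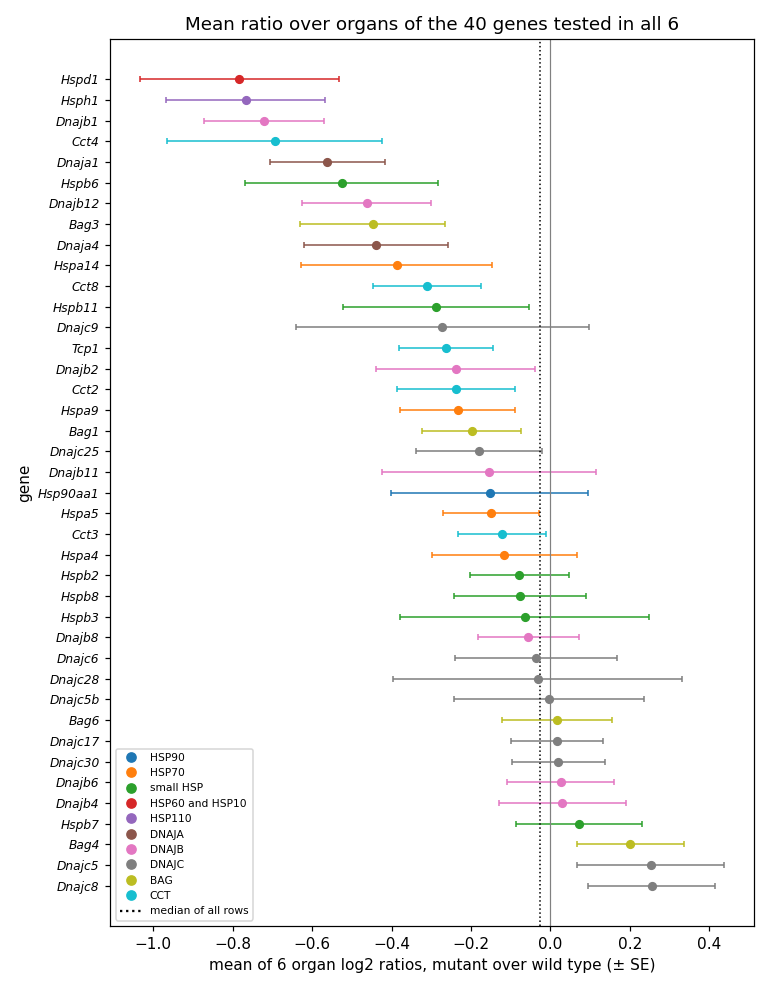
Mean of the 6 organ log2 ratios, mutant over wild type, with its SE over organs, for the 40 members tested in every organ, coloured by subfamily. The dotted line is the median of all 7553 rows at -0.03; 31 of the 40 means lie below 0.

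Among the HSP70 genes, Hspa9, the mitochondrial HSP70 that drives protein import, had small and even ratios. It read -0.37, -0.67, -0.33 and -0.54 in lung (-0.48 ± 0.236), -0.42, -0.44, -0.67 and -0.65 in spleen (-0.55 ± 0.236), and -0.38, -0.20, -0.47 and -0.15 in heart (-0.30 ± 0.236). Every array of these 3 organs was below 0. Testis read 0.23, 1.17, 0.004 and -0.08 (0.33 ± 0.236), a ratio above 0 but within 2 errors of it. Leaving out single arrays took the testis ratio as low as 0.05, and with array weights it was 0.13. None of the organs passed (adjusted p 0.265 in spleen and at least 0.46 elsewhere). Hspa9 rests on 4 probes that differed, with means in spleen between -1.98 and 0.31.

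Hspa5, the HSP70 of the endoplasmic reticulum known as BiP, stayed near 0 in heart (-0.004 ± 0.25), testis (0.02 ± 0.25), skeletal muscle (-0.08 ± 0.25) and brown adipose tissue (-0.08 ± 0.25). Its lowest ratio was in lung, at -0.47 ± 0.25, where all 4 arrays were below 0 (-0.86, -0.40, -0.56 and -0.05). The stress-induced Hspa1a was near 0 on every heart array (-0.15, -0.10, -0.13 and 0.03), while single arrays elsewhere reached 2.44 in lung and 2.32 in brown adipose tissue, with the other arrays of those organs from -1.23 to 0.74. Hspa4, an HSP110-related protein, had 1 such array in heart (2.37), with the others from -0.29 to -0.03. The testis-type Hspa1l gave -5.36, 1.19 and 0.26 in heart, an organ ratio of -2.08 ± 0.611 carried by the first array (adjusted p 1).

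Hspa14, a ribosome-associated HSP70, fell in skeletal muscle. It read -1.28, -0.50, -1.78 and -1.97, all below 0, with a ratio of -1.38 ± 0.357 (2.61-fold lower, adjusted p 0.0251). Of its 3 probes, 1 was measured on all 4 muscle arrays with a mean of -0.87, and the others on 1 array each. It was below 0 on every array in spleen (-0.77 ± 0.357, adjusted p 0.306) and brown adipose tissue (-0.56 ± 0.357, adjusted p 1) too, and above 0 on 3 of 4 arrays in lung (0.62 ± 0.357, adjusted p 0.867).

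Of the HSP90 genes, Hsp90aa1, the inducible cytosolic form, was above 0 on every spleen array (0.98, 0.83, 0.59 and 1.87; ratio 1.07 ± 0.457, adjusted p 0.258), whereas the tested HSP110, HSP70 and HSP60 members were all below 0 there. In skeletal muscle it read -4.01 and -1.46 with the mutant in Cy5 but 0.35 and 0.61 with the mutant in Cy3. The medians of all rows split the same way on these muscle arrays, at -0.39 and -0.7 against 0.023 and 0.635. In heart Hsp90aa1 read -1.73 and -0.57 against 0.38 and 0.80. In brown adipose tissue all 4 of its values lay between -0.10 and 0.02. Its dye term, Cy5 minus Cy3, was -0.91 ± 0.373 (unadjusted p 0.0246, adjusted p 0.324). Hsp90b1, the endoplasmic reticulum form, was below 0 on all 4 arrays in brown adipose tissue (-0.57, -0.59, -1.74 and -0.20, ratio -0.77 ± 0.547). It was below 0 on 13 of 14 arrays outside testis and on the 2 testis arrays with a value (-3.38 and -0.40). Spleen, testis and skeletal muscle had too few values of it to be tested.

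Hspd1, the mitochondrial HSP60, had large ratios with a wide spread. Spleen read -5.18, -1.29, -0.26 and -0.76, all below 0 (-1.87 ± 0.568, adjusted p 0.106), and lung -0.46, -3.28, -2.25 and 0.15 (-1.46 ± 0.568, adjusted p 0.604). Skeletal muscle was the most even, at -0.75, -0.65, -0.42 and -0.71 (-0.63 ± 0.568). With the values over 12 kept, the lung ratio turned to 1.08. Its partner Hspe1, which encodes the HSP10 lid and lies beside Hspd1 in the genome, had ratios near 0 in the 4 organs where it was tested: -0.16 ± 0.342 in heart, -0.01 ± 0.4 in testis, -0.15 ± 0.342 in skeletal muscle and 0.20 ± 0.342 in brown adipose tissue.

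Small heat shock proteins are abundant in muscle. Hspb6, which is phosphorylated in smooth and cardiac muscle, read -0.04, -2.98 and -1.53 in lung (-1.58 ± 0.398, adjusted p 0.217) and -0.56, -1.65 and -1.68 in spleen (-1.24 ± 0.398, adjusted p 0.128). On the arrays of the other organs it lay between -0.58 and 0.71. Without lung replicate 1 its lung ratio was -2.26 (adjusted p 0.0283), on the 2 arrays left, and without replicate 2 it was -0.79. Hspb3 was below 0 on 3 of 4 spleen arrays (-3.14, -2.88, -1.51 and 0.63; -1.73 ± 0.543, adjusted p 0.118; -2.37 and 0.0339 without replicate 4), and in lung it split by dye, at -0.31 and -1.07 with Cy5 and 1.69 and 4.22 with Cy3. Hspb1, the most widely expressed of them, was below 0 on all 4 heart arrays (-1.33, -2.42, -0.29 and -0.27; -1.08 ± 0.693, adjusted p 1). Hspb2, Hspb7 and Hspb8 had no ratio past the test in any organ, from -0.60 (Hspb8 in spleen) to 0.72 (Hspb7 in skeletal muscle).

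Hspb11 carries a small heat shock protein name but is known as a component of intraflagellar transport. It fell in skeletal muscle, reading -1.57, -2.88 and -0.23, with a ratio of -1.51 ± 0.358 (2.85-fold lower, adjusted p 0.016). Without replicate 2 the ratio, on 2 arrays, was -0.90 (adjusted p 0.187). In spleen all 4 arrays were above 0 (0.18, 0.60, 0.08 and 1.08; 0.48 ± 0.307). In the F test between organs it had the smallest p of the members (unadjusted p 0.00481, adjusted p 0.108). In that test 0 of 40 members passed, against 2.32% of rows, and 7 of 40 had an unadjusted p under 0.05, against 13.6%. With array weights 1 of 40 passed, Hsph1 (adjusted p 0.0117), against 4.79% of rows.

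Bag2, which inhibits the ubiquitin ligase CHIP, also fell in skeletal muscle, at -2.05, -2.32 and -1.81 on the 3 arrays that measured it (-2.20 ± 0.528, 4.58-fold lower, adjusted p 0.0212). In lung the ratio was as low, -2.24 ± 0.528 (adjusted p 0.196), but it rested on an array at -4.99 beside 2 at -0.84 and -0.46. Bag3, the BAG protein of selective autophagy and of the muscle Z disc, was below 0 on all 4 arrays in lung (-0.20, -1.05, -1.09 and -0.69), heart (-0.76, -0.53, -0.09 and -0.59), spleen (-0.13, -3.40, -0.44 and -0.76) and brown adipose tissue (-0.21, -0.11, -0.86 and -0.26). Its ratios were -0.76, -0.49, -1.18 and -0.36 ± 0.392, none past the test. The array at -3.40 came from 1 of its 2 probes: in spleen that probe averaged -3.74 over 2 arrays and the other -0.27 over 4. Skeletal muscle and testis lay on both sides of 0 for Bag3 (0.10 ± 0.392 and 0.01 ± 0.392). Bag4 had the opposite sign in its mean over organs, 0.20 ± 0.134, and Bag6 was at 0.02 ± 0.138.

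Dnajc28, a little studied class C J protein, rose in skeletal muscle. It read 0.22, 2.69, 1.49 and 3.43 there, all above 0, with a ratio of 1.96 ± 0.538 (3.88-fold higher, adjusted p 0.0397). In spleen it split by dye, at -2.43 and -2.20 against 0.60 and 0.76, and in lung its 3 values were below 0 (-1.21 ± 0.626). None of the 4 calls in muscle held with array weights (adjusted p 0.0976 for Hspb11, 0.375 for Bag2, 0.437 for Hspa14 and 0.644 for Dnajc28) or with arrays centred and scaled. None held with the organ fitted alone either, but no row of the table passed in that setting. After centring only, Bag2 and Dnajc28 held. Leaving out 1 muscle array gave 2, 6, 1 or 3 member calls for replicates 1 to 4. Dnajc28 passed without replicate 1 or 3, at adjusted p-values of 0.0276 and 0.04, and not without replicate 2 or 4 (0.18 and 0.152). Hspa14 passed without replicate 2 (0.0333) and not without any of the others (0.0631 to 0.0886). Bag2 lost the call without replicate 3 or 4 (0.0911 and 0.0677) and could not be tested without replicate 1, and Hspb11 lost it without replicate 1 or 2 (0.0559 and 0.187) and could not be tested without replicate 3. Replicate 2 held no value of Bag2 and replicate 4 none of Hspb11, so leaving out those arrays was no check of these calls.

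**Figure D4:**
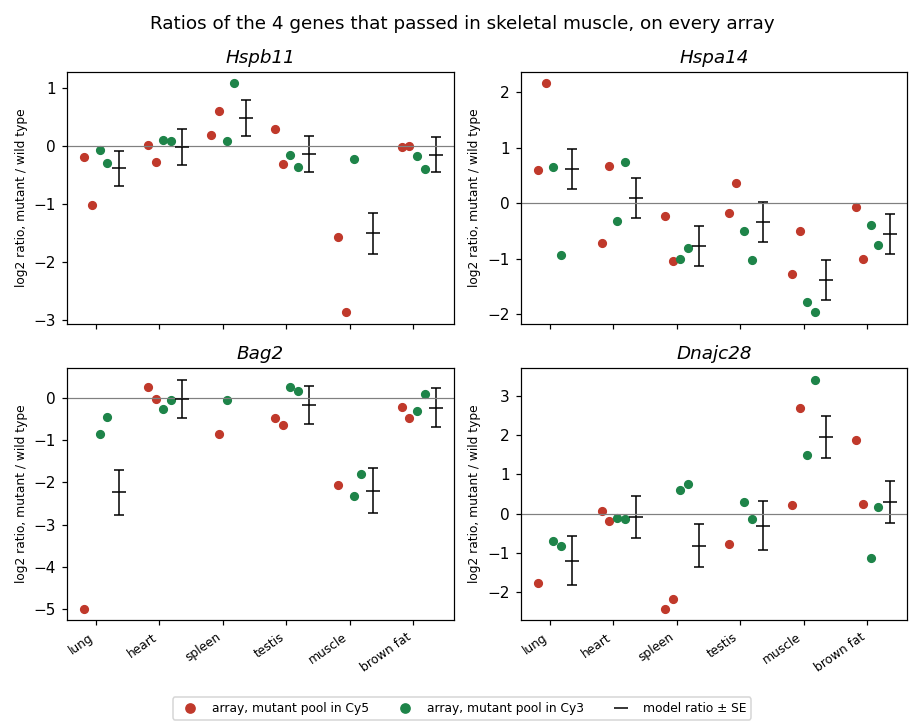
Log2 ratios, mutant over wild type, of Hspb11, Hspa14, Bag2 and Dnajc28 on every array, by organ; points are arrays coloured by the dye of the mutant pool, and bars the model ratio ± SE (spleen has no bar for Bag2, which was not tested there). In skeletal muscle, all arrays of the first 3 genes lie below 0 and all 4 of Dnajc28 above 0.

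Class B J proteins hand misfolded proteins to HSP70. Dnajb1, the main stress-induced J protein known as HSP40, had organ ratios from -1.25 to -0.29 and the smallest p of the members over organs, while its arrays within an organ lay far apart. Skeletal muscle read -2.67 and -3.27 with Cy5 and 1.57 and 2.00 with Cy3, where the medians of all rows were -0.39 and -0.7 against 0.023 and 0.635. Spleen read -1.93, 0.13, -3.06 and -0.15, and lung -0.10, -3.82, -0.21 and 0.18. No organ ratio exceeded 2 times its error. Dnajb12, a J protein of the endoplasmic reticulum membrane, split by dye in spleen (1.08 and 1.34 against -2.74 and -2.83), and Dnajb11, of the endoplasmic reticulum lumen, had 1 array at -6.17 in brown adipose tissue beside -0.20, 0.02 and 0.23. Dnajb4 and Dnajb6 had means over organs of 0.03 each.

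Class C J proteins, the most numerous and most diverse in function, gave the highest member ratio in 4 of 6 organs. Dnajc5, the cysteine string protein of secretory vesicles, was above 0 on all spleen arrays (1.05, 0.02, 0.77 and 2.60; 1.11 ± 0.38, adjusted p 0.149). Dnajc6, auxilin, was below 0 on all of them (-0.44, -2.27, -1.63 and -0.26; -1.15 ± 0.453, adjusted p 0.212). Dnajc10, an endoplasmic reticulum reductase, was above 0 on all muscle arrays (0.61, 0.06, 0.77 and 3.04; 1.12 ± 0.516, adjusted p 0.233), and Dnajc4 reached 1.31 ± 0.584 there (2.19, adjusted p 0.0352, without replicate 2). Dnajc8, linked to splicing, was at 0.75 ± 0.304 in lung and Dnajc9, a histone chaperone, at -1.67 ± 0.794. In testis, Dnajc7 had the highest ratio of any member and organ, 2.40 ± 1.131, with 6.79 on 1 array and 1.94, 0.71 and 0.17 on the others. The remaining extremes by organ were Dnajc27 (0.62 ± 0.685) and Dnajc4 (0.57 ± 0.584) in heart, Dnajc11 in spleen (1.37 ± 1.044), Dnajc19 (0.99 ± 0.489), Dnajc16 (-1.15 ± 0.708) and Dnajc5g (-0.71 ± 0.69) in testis, and Dnajc2 in brown adipose tissue (0.78 ± 0.436). None passed the test, and several rested on 1 array. Dnajc16 read -4.05 on testis replicate 1 and had a ratio of -0.08 without it. Dnajc5g read -3.001 on that array beside -0.68 and 1.69, and its ratio turned to 0.56 with array weights. Without the highest array, the ratio was 0.01 for Dnajc4 in heart, 0.155 for Dnajc19 and 0.155 for Dnajc2.

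The CCT subunits form 1 complex that folds actin and tubulin. Of 7 tested, 6 lay below 0 in each of lung (median -0.33), heart (-0.16), testis (-0.11) and skeletal muscle (-0.67). In these organs 47.3% to 58.2% of rows did. In brown adipose tissue 7 of 8 did (61.1% of rows) and in spleen 4 of 6 (54.5%). None passed the test, and the CCT medians were below 0 in all 6 organs on each of the scalings named above. Cct4 was the lowest in spleen, at -1.49, -2.93, 1.11 and -5.48 (-2.20 ± 0.588, adjusted p 0.0649). Replicate 3 was above 0 and the others far below. Leaving out each spleen array in turn gave ratios from -3.36 to -1.04. The lowest was without replicate 3, the array above 0, and passed (adjusted p 0.000436). With array weights the ratio was -1.74 (adjusted p 0.526). The error comes from a spread shared with the other organs, where this gene varied less than in spleen. Outside spleen the arrays of Cct4 lay between -1.69 and 0.16. Cct8 was at -0.82 ± 0.258 in skeletal muscle (-0.85, 0.05, -0.77 and -1.69; adjusted p 0.0695). Tcp1, the alpha subunit, had ratios of -0.02 to -0.47 with an error of 0.349 in each organ. Cct6a stood against the others in testis (1.96, 2.10 and 0.40; 1.34 ± 0.753), and was at -2.06 ± 0.753 in skeletal muscle, while Cct5 was at 0.69 ± 0.493 in lung.

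Agreement between the dye orientations was weak in spleen for the members, and near 0 or below in the other organs and for the table. Across members within an organ, the mean of the Cy5 arrays and the mean of the Cy3 arrays had Spearman coefficients of 0.30 in spleen (52 genes), 0.07 in lung (55), -0.02 in testis (64), -0.08 in heart (62), -0.10 in brown adipose tissue (66) and -0.11 in skeletal muscle (60). For all rows they were between -0.17 and 0.01. Genes are not independent replicates and share the arrays. The dye term passed for 0 of 40 members, against 0.225% of rows, and had an unadjusted p under 0.05 for 5 of 40, against 12.7%: Dnajc9 (-2.11 ± 0.631), Cct3, Dnajc5, Hsp90aa1 and Hspb3 (-1.05 ± 0.456). On single arrays, the members' median lay below that of all rows on 19 of 24, among them all 4 of lung (by 0.16 to 0.41) and all 4 of heart (by 0.02 to 0.16). Below 0 on every array with a value were 16 of 55 members in lung (29.1%, against 9.33% of rows), 10 of 62 in heart (16.1%, against 9.15%) and 10 of 52 in spleen (19.2%, against 11.8%). In skeletal muscle they were 15 of 60 (25.0%, against 14.2%), in brown adipose tissue 11 of 66 (16.7%, against 11.0%) and in testis 4 of 64 (6.25%, against 7.03%).

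**Figure D5:**
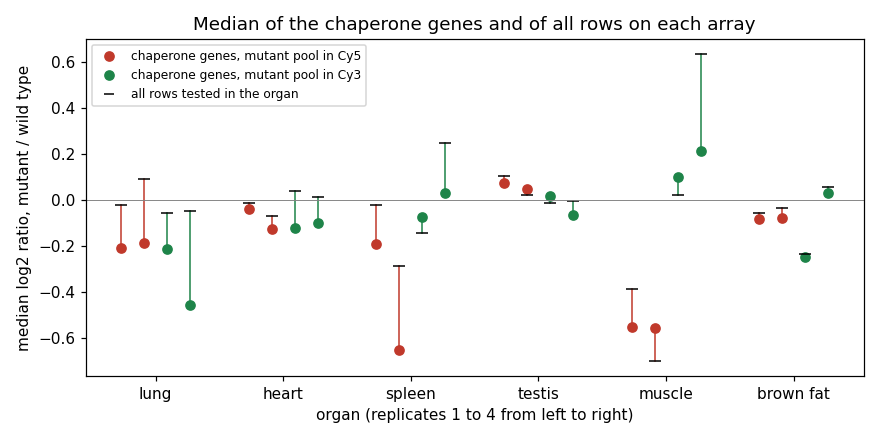
Median log2 ratio, mutant over wild type, of the chaperone genes (points, coloured by the dye of the mutant pool) and of all rows tested in the organ (black bars) on each of the 24 arrays. In lung the 4 points lie below their bars, by 0.16 to 0.41.

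Of 54 further genes of protein folding (regulators of the heat shock response, cochaperones, crystallins, folding enzymes of the endoplasmic reticulum and mitochondria, and prefoldin), 34 to 36 were tested in each organ. In skeletal muscle 3 of 34 passed, against 5.59% of rows, and in spleen 1 of 35, against 1.53%. In skeletal muscle Sgta, a cochaperone of tail-anchored proteins (2.25 ± 0.622, adjusted p 0.0388), and Pfdn1, a prefoldin subunit (1.01 ± 0.288, adjusted p 0.0443), rose. Herpud1, an endoplasmic reticulum stress protein, fell there by 0.97 ± 0.238 (adjusted p 0.0185). Tomm34, a cochaperone of mitochondrial import, rose in spleen (2.73 ± 0.639, adjusted p 0.039). These calls are given for equal array weights only. With array weights, calls over all rows fell from 669 to 157 in skeletal muscle and from 172 to 23 in spleen. With the organ fitted alone, no row passed in either. None of the list passed in lung (0.0809% of rows), heart, testis or brown adipose tissue (0% in each), and its median lay between -0.17 and 0.04 in all 6 organs.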

How the data were processed

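For 24 2-colour arrays, the authors deposited a log2 ratio for each probe. No source used here gives the scale, centring or direction of these ratios, how background was corrected, or which software was run. The ratios were read as mutant over wild type on every array, under which Nr4a1, the targeted gene, lies mostly below 0. The 4874 values over 12 in size are positive with the mutant in Cy5 and negative with it in Cy3. This reading gives those signs if the Cy3 channel was the empty one, which is not stated, so they do not settle the direction alone. No value lay between 9.942 and 15.704 in size, and those above were set to missing. Of 20205 probes, 13891 have 1 symbol in the platform annotation, 5 several and 6309 none. Probes of 1 symbol were averaged per array, and no array was centred.

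Ratios were tested with limma 3.58.1 in R 4.3.3 (lmFit and eBayes) over all 24 arrays, with 6 organ coefficients and 1 dye term. A row was tested in an organ with values on at least 3 of its 4 arrays and in both dye orientations; with 1 array left out, 2 of the other 3 sufficed. Benjamini-Hochberg adjustment ran over all rows of an organ, or the 7553 rows tested in every organ, with a threshold of 0.05. Errors are the model's SE, from 1 spread per row that all 24 arrays share. For the mean over organs, the 6 organ ratios of a row were tested against 0.

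The named genes are a core of 16 well-known chaperones where measured, members past a test, the 3 highest and 3 lowest ratios of each organ, and members at 1 or more in size with 1 sign on all 4 arrays. The members and lists were chosen with earlier results of these data known. The procedure was tested on simulated data in which a row had the same spread on every array. Its behaviour with arrays of unequal precision was not tested there. The alternatives were other dye terms, centring, scaling, array weights, missing-value rules, probe medians, a replicate block, organs fitted alone and leaving out arrays.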

Additional observations from a re-analysis of the deposited data

Results flagged for a closer look

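In 8 of 81 groups of 4 arrays, 1 array lay far from the others relative to the group's range (Dixon's test at the 95% level). The groups include the 3 highest and 3 lowest ratios of each organ, so a chance rate of 1 in 20 does not apply to them. The members' median in lung was -0.459 on replicate 4, against -0.213 to -0.187 on the others. Dnajb1 in lung read -3.823 on replicate 2, against -0.207 to 0.176. Hspa4 in heart read 2.369 on replicate 2, the array whose wild-type channel is labelled as skeletal muscle, against -0.286 to -0.034. In testis, Dnaja1 read -0.246 on replicate 4, against 0.097 to 0.154, and Hspa5 read -0.519 on replicate 1, against 0.17 to 0.231. Hspa9 in skeletal muscle read 0.288 on replicate 3, against -0.591 to -0.473. In brown adipose tissue, Dnajb11 read -6.174 on replicate 4, against -0.202 to 0.234, and Dnajc9 read -3.781 on replicate 1, against -0.022 to 0.481.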

How the results depend on the processing

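Of the named ratios, 1332 comparisons with an alternative kept direction and side of the threshold, 28 lost the call, 9 gained it and 5 turned, where ratios within 1 SE of 0 were given no direction. Those that turned were Hspa1l in brown adipose tissue without the dye term (-0.085), Dnajc5g in testis with array weights (0.562), Hspd1 in lung with values over 12 kept (1.078), and, when replicate 4 was left out, Hspa5 in spleen (0.068, with -0.554 as the lowest value over the 4 arrays left out in turn) and Dnajb11 in brown adipose tissue (0.024, lowest -2.109). One dye term for each organ gave 1 member past the test in lung and 2 in spleen. With arrays centred 2 passed in skeletal muscle, and with scaling too 0 passed there and 0 in spleen. Centring changed the calls over all rows in muscle from 402 higher and 267 lower to 447 and 105. With array weights 0 passed in spleen and 0 in skeletal muscle, 2 in brown adipose tissue and 1 in the F test between organs. With complete rows 2 passed in skeletal muscle, and with organs fitted alone 0 in muscle and 0 in spleen, where no row of the table passed. Leaving out 1 array gave 0 to 1 members past the test in lung, 2 to 4 in spleen and 1 to 6 in skeletal muscle, and a median of the members in heart of -0.142 to 0.009. Members lower over organs at an unadjusted p numbered 4 with values over 12 kept, 5 without lung and 4 to 6 without 1 replicate number. The causes were not tested.

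The replicate numbers did not clearly pair the arrays. Of 60 same-numbered pairs, 12 correlated over 0.1, with a median of 0.043. Pairs with different numbers had a median of 0.041 in the same dye orientation and -0.047 in the other. Of 24 arrays, 13 correlated best with their own number. With the replicate block Hsph1 in spleen had an adjusted p of 0.0116 and Dnajc28 in muscle of 0.0568, and 3 of the 4 muscle calls held. The calls over all rows went from 172 to 120 in spleen and from 669 to 572 in muscle. Signal over background is not known here, so dim probes could not be set apart.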
